A study of Mus musculus with 74 samples.

Results

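Of the 42572 accessible regions that the authors called in brown adipocyte nuclei of mouse brown adipose tissue (BAT), 18224 lay more than 1000 bp from the nearest annotated transcription start, were not annotated as promoters and overlapped no region called in white adipocyte nuclei of white adipose tissue (WAT) by even 1 bp. These distal regions called only in BAT are described here with the daily course of their accessibility, their nearest genes and the RNA of those genes in both depots. The other BAT regions were 11803 distal regions that overlapped a WAT region, called shared below, 12542 promoter regions and 3 regions without annotation. All adipocytes came from Adiponectin-Cre:NuTRAP mice, in which Cre driven by the adiponectin promoter tags the nuclei and the ribosomes of adipocytes, so that brown and white groups share the same alleles and differ by depot. Frozen depots were taken at Zeitgeber time (ZT, hours after lights on) 1, 5, 9, 13, 17 and 21. Tagged nuclei were sorted by flow cytometry for ATAC-seq, in which a transposase cuts open chromatin, and ribosome-bound RNA was pulled down with an antibody to GFP. There were 3 libraries per depot, time and assay, except BAT RNA at ZT17 with 2. A BMAL1 chromatin immunoprecipitation from inguinal WAT of C57BL6J mice at ZT4 gave 10368 bound regions. The labels give no age, sex, diet or feeding schedule and do not say that replicates were separate animals, so p-values measure the spread between libraries.

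Distal accessible regions are often enhancers, short stretches of DNA where transcription factors bind and act on the promoter of a gene that can lie far away. In brown fat such regions carry the program for heat production, with Ucp1, the mitochondrial uncoupling protein, as its best known target, and factors such as PPARs, EBF2 and the coactivators PGC-1α and PGC-1β act there. The circadian clock works through the same kind of DNA: BMAL1 with CLOCK binds E-boxes, REV-ERB and ROR receptors bind an element with A and T before a receptor core, and hormones and feeding add further daily signals. The nearest gene is used below as a label by distance, and whether a region acts on that gene was not measured.

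Sequence from the reference was at hand for members that fell wholly inside a RefSeq promoter window of the GRCm38.p6 assembly (the mm10 build), which spans 250 bases before to 50 after a gene's start. Of the 18224 members, 71 lay inside such a window, and 10 of these 71 were rhythmic by the test used below, against 18.9% of all BAT regions. The rhythmic ones are members whose DNA can be read beside a daily profile. Any that lay on a chromosome set aside for sequences were left out, and the 6 with the smallest p among the rest are shown. Each is 151 bases, printed 5′ to 3′ on the strand of the window's gene (Gm39486, Gm40863, Gm35190, Gm17196, Arhgef4 and Gm41044 in turn), named here by the nearest gene in the authors' annotation, and capitals mark matches to the 15 motifs searched on both strands.
Slc38a10 region: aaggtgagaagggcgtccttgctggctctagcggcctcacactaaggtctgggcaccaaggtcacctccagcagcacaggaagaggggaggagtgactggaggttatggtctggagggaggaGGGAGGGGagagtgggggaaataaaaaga
Mboat1 region: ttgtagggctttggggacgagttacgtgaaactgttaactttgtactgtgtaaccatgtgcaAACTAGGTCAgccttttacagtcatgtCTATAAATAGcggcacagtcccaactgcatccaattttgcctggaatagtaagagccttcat
Calml3 region: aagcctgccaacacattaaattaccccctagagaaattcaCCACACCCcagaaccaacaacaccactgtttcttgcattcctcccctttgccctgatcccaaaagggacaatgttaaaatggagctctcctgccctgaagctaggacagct
5730435O14Rik region: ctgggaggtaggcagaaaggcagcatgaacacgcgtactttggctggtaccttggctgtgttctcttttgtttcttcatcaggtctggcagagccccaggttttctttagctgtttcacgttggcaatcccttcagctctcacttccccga
AA619741 region: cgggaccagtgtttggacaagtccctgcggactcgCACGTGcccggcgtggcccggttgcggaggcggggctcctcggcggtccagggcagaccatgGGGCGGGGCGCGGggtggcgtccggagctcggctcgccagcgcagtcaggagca
Pik3r1 region: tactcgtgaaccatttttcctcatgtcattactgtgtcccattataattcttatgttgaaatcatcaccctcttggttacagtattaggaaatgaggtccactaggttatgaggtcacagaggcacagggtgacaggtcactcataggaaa

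The Slc38a10 region (chr11:120164679-120164829, minus strand) held a match to the KLF and SP motif CCNCNCCC, and its accessibility peaked at ZT13.27 with a peak-to-trough difference of 0.96 ± 0.14 on the log2 scale (SE, adjusted p = 0.000544). The Mboat1 region (chr13:30235185-30235335, minus strand) held a ROR and REV-ERB element (the first run of capitals) and a MEF2 motif (the second run), and it peaked at ZT20.69 with a difference of 1.15 ± 0.18 (adjusted p = 0.000767). The Calml3 region (chr13:3767323-3767473, minus strand) held CCNCNCCC and peaked at ZT5.38. The AA619741 region (chr1:34678044-34678194, plus strand), which is 74.8% G and C, held the E-box CACGTG and overlapping matches to CCNCNCCC. It peaked at ZT2.73 and overlapped a BMAL1 region of WAT by 96 bp. The 5730435O14Rik region (chr10:41553366-41553516, plus strand, peak at ZT18.82) and the Pik3r1 region (chr13:102014360-102014510, minus strand, peak at ZT20.63) held none of the 15 motifs. The call of the Pik3r1 region, adjusted p = 0.0182, was lost without replicate 3 at ZT21. Over the 71 members, CACGTG stood in 6 (8.45%), against 3.89% of the central 151 bases of all 32851 promoter windows. The E-box CAGCTG stood in 16.9% against 8.23%, and CCNCNCCC in 32.4% against 35.7%. Within the central 100 bases of the members CACGTG stood in 4.23% and CAGCTG in 7.04%, while the windows were searched over 151 bases only, so the E-box shares depend on the length searched. The other 12 motifs, named for ROR and REV-ERB, the D-box, PPAR with RXR, ERR, C/EBP, EBF, NFI, MEF2, AP-1, CRE, the glucocorticoid receptor and CTCF, stood in 0 to 7 of the 71, and some of them share letters. These 71 lie near starts by construction, and no motif share was computed for the other members.

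The members were mostly intronic or intergenic. By the authors' annotation 9151 (50.2%) lay in introns and 8048 (44.2%) between genes, with 361 in exons, 300 at transcription ends, 293 in 3′ UTRs, 64 in non-coding transcripts and 7 in 5′ UTRs. The median distance to the nearest start was 26175 bp, against 22767 bp for shared distal regions, and 15.3% of the members lay over 100 kb away. Repeats made up 16.4% of the members and 12.8% of the shared regions, and CpG islands 1.06% and 3.77%. On the X chromosome 311 of 430 distal regions (72.3%) were called only in BAT, against 57.3 to 63.4% on the autosomes. At the distance limit the nearest members inside were those of Hnrnpr at -1001 bp, Tubb2a at 1002 bp and Ncs1 at -1003 bp, and the nearest regions outside were those of Entpd5 at 998 bp, Gpsm1 at 998 bp and Sh2d4a at 996 bp.

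Members were weaker than the other classes of BAT regions. Their median level was 12.2 CPM (tags per library total, scaled by TMM), with a range from 6.76 to 89.3, against medians of 22.5 for shared regions and 28.2 for promoters. Called only in BAT does not mean closed in WAT, because the WAT list is shorter (25050 regions) and its libraries held 1623006 to 5294923 tags in regions, against 3959384 to 12811242 in BAT. The deposited WAT table counts tags in WAT regions only, so the WAT level of members was not measured. Regions are 150 bp long, and 1563 members lay within 1 kb of a WAT region. Requiring an overlap of 75 bp before a region counts as shared would give 18433 members.

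The 10 members with the highest level lay near A530050N04Rik, Ppargc1b, Lrrc4c, Trp53i11, Hivep2, Vgll4, Pnpla5, Zfp831, Rab11b and Eln, at 77.9 to 89.3 CPM. Ppargc1b encodes PGC-1β, a coactivator of mitochondrial genes, and its member 37858 bp upstream held 86.8 CPM. The member 1225 bp upstream of Hivep2 lay 28 bp from a WAT region and overlapped a BMAL1 region by 114 bp, and the Lrrc4c member lay 274 bp from a WAT region. By edgeR 0 of these 10 was called rhythmic, 2 had an unadjusted p under 0.05 and DESeq2 called 1. A high level did not go with BAT RNA of the nearest gene in every case: RNA of Eln, which encodes elastin, was -4.73 ± 0.35 log2 in BAT against WAT (adjusted p = 1.08e-14), RNA of Trp53i11 was -4.5 ± 0.4 (adjusted p = 1.47e-12) and RNA of Rab11b, a vesicle transport GTPase, was 0.62 ± 0.11 (adjusted p = 5.85e-06).

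Accessibility was tested for a 24 h rhythm in the 18 BAT libraries with a cosine and a sine term in edgeR's quasi-likelihood test, with Benjamini-Hochberg adjustment over all 42572 BAT regions and a call at adjusted p under 0.05. Of the members, 3942 (21.6%) were rhythmic, against 18.9% of all BAT regions, 20.5% of shared regions and 13.5% of promoters. The fitted peaks of rhythmic members gathered in the first part of the night: 31% were nearest to ZT13, 25.6% to ZT17 and 19.6% to ZT21, while ZT1 and ZT5 took 5.35% and 5%. Between ZT11 and ZT19 lay 2232 peaks, 56.6% of rhythmic members, against 21.3% of rhythmic shared regions, 43.7% of which peaked nearest to ZT21, and 8.28% of rhythmic promoters, 53% of which peaked nearest to ZT5. Members that reached a log2 peak-to-trough difference of 1 numbered 595 (15.1% of the rhythmic ones, against 10.6% of shared regions and 2.72% of promoters), and the median difference was 0.70, against 0.58 and 0.33. Levels differ between the classes, and at like level the excess over shared regions did not hold throughout. In 5 bins of all BAT regions by mean level, lowest first, the median for rhythmic members was 0.83, 0.73, 0.63, 0.53 and 0.43. For rhythmic shared regions it was 0.91, 0.79, 0.63, 0.51 and 0.35.

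**Figure D1:**
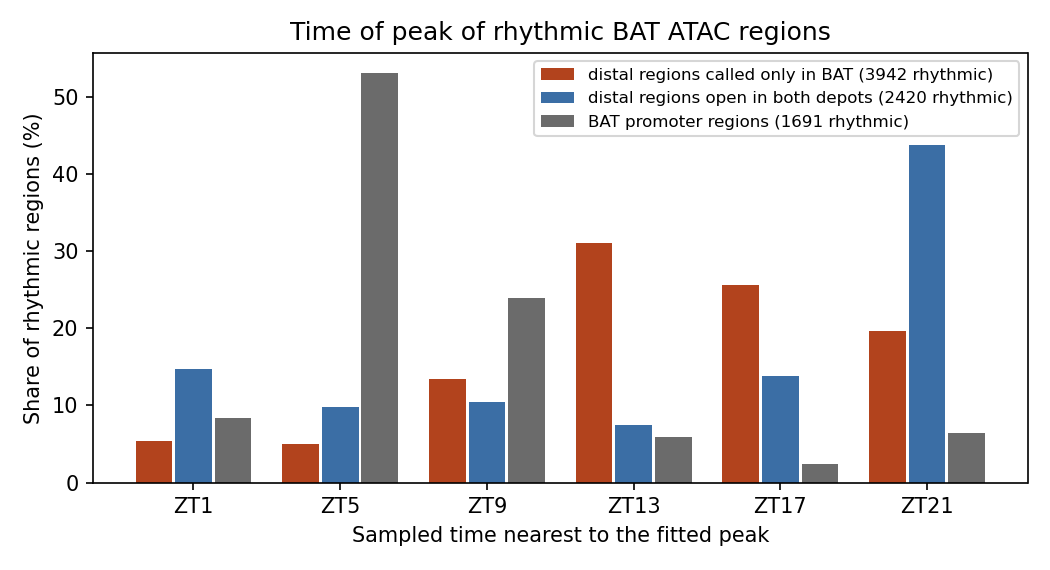
Share of rhythmic BAT ATAC regions (%, vertical axis) by the sampled time nearest to the fitted peak (horizontal axis, ZT), for distal regions called only in BAT, distal regions open in both depots and promoter regions, as bars. The bars of the regions called only in BAT are highest at ZT13 (31%) and ZT17 (25.6%), those of shared regions at ZT21 (43.7%) and those of promoters at ZT5 (53%).

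The peak times depend on how libraries are scaled, since each scaling fixes what stays level over the day. With TMM factors from promoter regions alone, 67.5% of rhythmic members peaked between ZT11 and ZT19, against 35.8% of shared regions and 35.1% of promoters. With factors from the members alone the share was 33.6%, against 6.81% and 1.73%, and rhythmic members then spread over the day with 12.9 to 22.1% at each time. Library size alone gave 59.6%, DESeq2 54.9% and a loess fit on the mean level 49.4%. The members had the highest share of the 3 classes under the main scaling and under each of these 5.

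The share of a library's tags that fell in members needs no such scaling. By day it was 26.6 ± 1.0% at ZT1, 26.9 ± 0.2% at ZT5 and 27.8 ± 0.635% at ZT9 (SD, n = 3). In the night it was 28.4 ± 0.231% at ZT13, then 29.1 ± 0.52% at ZT17, and lastly 27.9 ± 0.577% at ZT21. All libraries lay between 25.6 and 29.7%, so the daily change was a few percentage points. The share of promoters was lowest at ZT17, 39.8 ± 0.681%, and highest at ZT5, 42.8 ± 0.289%, and as the shares of a library add to a fixed total, these courses are not independent.

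**Figure D2:**
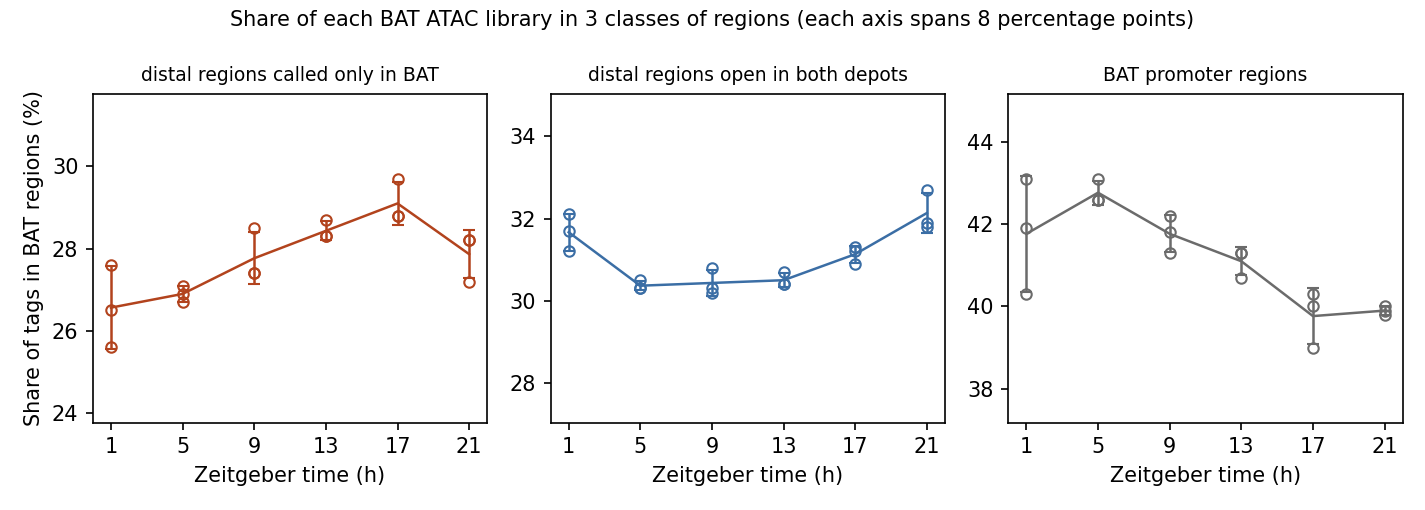
Share of the tags in BAT regions (%, vertical axes, each spanning 8 percentage points at a different level) by Zeitgeber time (h) for the 3 classes of regions; open circles are libraries, lines join means of 3 libraries and bars are ± SD. The regions called only in BAT go from 26.6% at ZT1 to 29.1% at ZT17.

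The authors' deposited table of JTK_CYCLE results, a rank test for rhythms, gives q under 0.05 for 1906 of the 18221 members it holds (10.5%), against 9.1% of all regions. Of those members in the authors' deposited table, 62.0% have a phase of 12 to 18 h, against 25.6% of shared regions and 10.2% of promoters. The edgeR test, on the same libraries, called 96.9% of them as well, while 46.8% of the members rhythmic by edgeR had q under 0.05 by JTK_CYCLE. Rhythmic calls were more frequent with distance: 26.6% of members over 100 kb from a start were rhythmic and 19.8% of those at 1 to 10 kb. On the X chromosome 44 of 311 members (14.1%) were rhythmic, against 21.8% on autosomes. In 5 bins of equal size by mean level, 48.9 to 62.3% of rhythmic members peaked between ZT11 and ZT19, against 13.1 to 23.7% of rhythmic shared regions.

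The 10 members with the smallest rhythm p were led by the region 151.5 kb upstream of Npy (chr6:49671119-49671269), the gene of neuropeptide Y. Its 3 libraries held 2.28, 2.1 and 2.91 CPM at ZT1, 2.91, 1.67 and 2.13 at ZT5 and 7.99, 8.78 and 6.64 at ZT9. They held 12.9, 13.9 and 17.3 at ZT13, 13.5, 15.1 and 15.9 at ZT17 and 6.63, 4.48 and 2.35 at ZT21. All night values at ZT13 and ZT17 lay above all others, the peak-to-trough difference was 3.11 ± 0.23 log2 with a peak at ZT14.36 (adjusted p = 4.87e-07), and no member had a larger called difference.

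The member in intron 6 of 36 of Myom2 (chr8:15075880-15076030), a gene of the sarcomere M-band, held 10.4, 8.95 and 8.27 CPM at ZT1, 17.4, 18.7 and 16.6 at ZT5 and 30.1, 28.9 and 27.6 at ZT9. It held 27.5, 36.3 and 36 at ZT13, 22.7, 25.5 and 23.8 at ZT17 and 10.5, 15.3 and 14 at ZT21. The libraries of ZT9 and ZT13 were above all others, with a difference of 1.77 ± 0.13 and a peak at ZT12.17 (adjusted p = 4.87e-07).

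The member 19.6 kb upstream of Dgat2 (chr7:99202226-99202376), which encodes an enzyme of the last step of triglyceride synthesis, held 11.7, 12.2 and 12.9 CPM at ZT1, 14.2, 17 and 14.7 at ZT5 and 25.3, 25.5 and 21.6 at ZT9. It held 34.2, 32 and 30.1 at ZT13, 26.1, 24.6 and 24.1 at ZT17 and 13.8, 14.7 and 10.1 at ZT21. The ZT13 libraries did not overlap those of any other time, and the difference was 1.47 ± 0.11 with a peak at ZT12.72 (adjusted p = 6.62e-07).

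Among the 10, 1 region peaked at the end of the night and 1 by day. The region 102.4 kb downstream of the start of 6030458C11Rik (chr15:12722167-12722317) held 29.4, 28.6 and 31.2 CPM at ZT1, 17.1, 19.4 and 17.5 at ZT5 and 12.1, 11.9 and 12 at ZT9. It held 11.5, 11 and 7 at ZT13, 18.3, 14.6 and 16.2 at ZT17 and 29.3, 35.3 and 22 at ZT21, for a peak at ZT23.45 and a difference of 1.66 ± 0.14 (adjusted p = 1.28e-06). The region 101.2 kb from the start of Sri (chr5:8157689-8157839), which encodes the calcium-binding protein sorcin, overlapped a BMAL1 region by 147 bp. It held 9.14, 11.4 and 15.9 CPM at ZT1, 16, 16.7 and 17.1 at ZT5, 18.6, 19.8 and 17.6 at ZT9 and 11.5, 8.86 and 9.72 at ZT13. At ZT17 it held 4.58, 2.92 and 4.04 and at ZT21 4.53, 3.76 and 7.33, below all daytime libraries, with a peak at ZT6.53 and a difference of 2.25 ± 0.21 (adjusted p = 7.2e-06). The other 5, near Eif4ebp2, Oxr1, Mir7676-2, Pfkfb4 and Sema5b, had differences of 0.95 to 1.84 and peaks from ZT11.69 to ZT15.26.

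**Figure D3:**
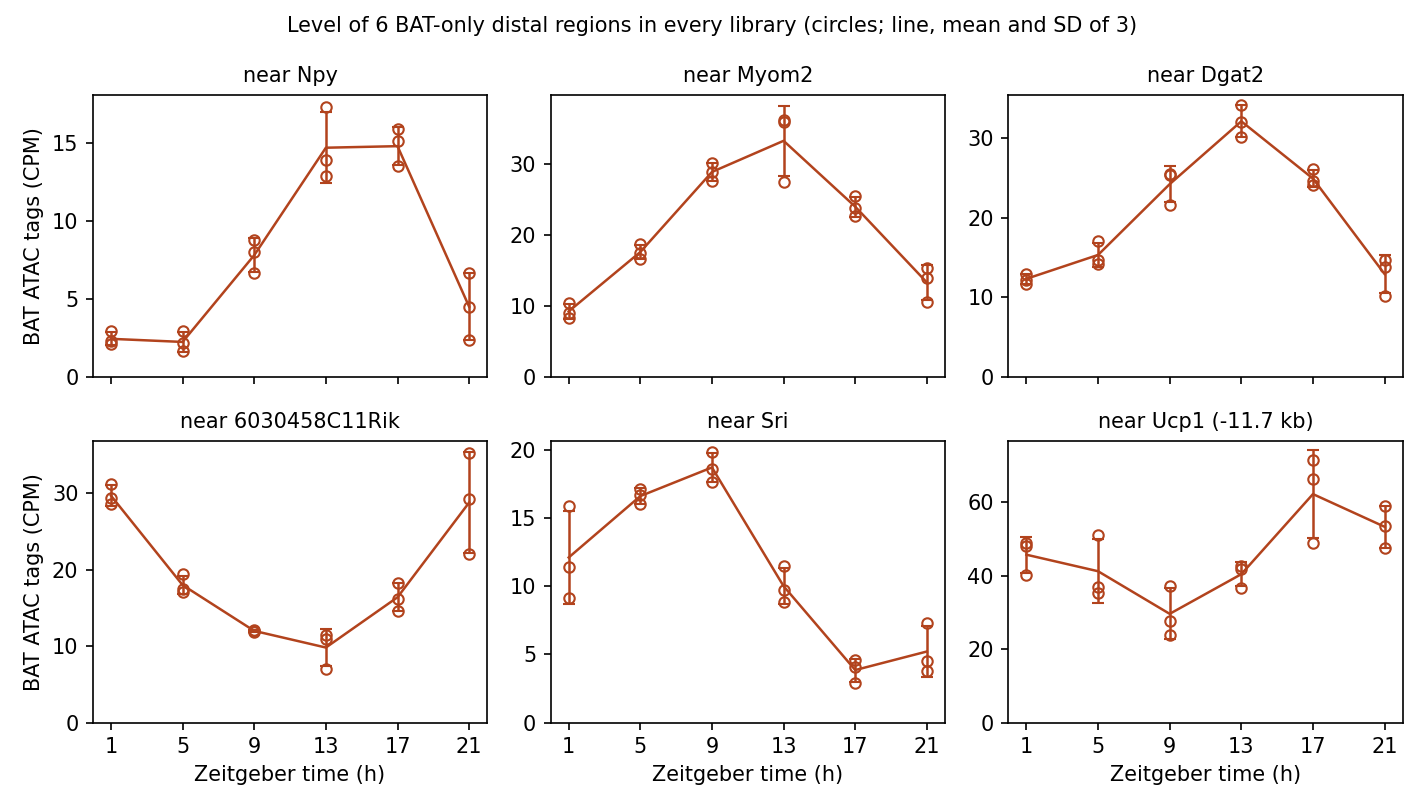
Level of 6 members (TMM-scaled CPM, vertical axes from 0) by Zeitgeber time (h); circles are libraries, lines join the means of 3 libraries and bars are ± SD. The Npy, Myom2 and Dgat2 regions are highest between ZT9 and ZT17, the 6030458C11Rik region at ZT21 and ZT1, the Sri region by day and the Ucp1 region at -11.7 kb at ZT17 and ZT21.

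RNA of the genes nearest to these 10 members mostly showed no matching rhythm. Npy and Mir7676-2 were listed at 0 in all 17 BAT libraries, and a region may serve another gene. Myom2 had 0.153, 1.07 and 5.47 CPM as its lowest, median and highest BAT level (rhythm adjusted p = 0.882), and skeletal muscle markers summed to 23.9 to 675 CPM in the same libraries, whose part in the Myom2 level was not tested. Dgat2 RNA ranged from 172 to 343 CPM in BAT with a median of 238, against a WAT median of 87.2, a log2 difference of 1.34 ± 0.12 (adjusted p = 2.61e-12), and its BAT rhythm missed the threshold (0.55 ± 0.18, adjusted p = 0.0949). Eif4ebp2, which encodes a repressor of cap-dependent translation, did have rhythmic BAT RNA (0.98 ± 0.25, adjusted p = 0.0436), a call lost in 12 of 22 alternatives, and its peak at ZT1.63 lay 11.87 h from that of the region. Sri RNA was -0.92 ± 0.1 in BAT against WAT (adjusted p = 1.64e-10), with a rhythm adjusted p of 0.0828.

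Ucp1 was the nearest gene of 7 members, 1 shared region and 1 promoter region. The members lay from 29703 to 2436 bp upstream, and the strongest was the closest one (chr8:83287837-83287987) with a mean of 53.8 CPM and no rhythm call (adjusted p = 0.163). The member 11.7 kb upstream (chr8:83278561-83278711) held 40.1, 49 and 48 CPM at ZT1, 37, 35.4 and 51.1 at ZT5 and 23.9, 37.3 and 27.6 at ZT9. It held 41.9, 36.6 and 42.6 at ZT13, 48.8, 71.4 and 66.3 at ZT17 and 53.6, 47.5 and 58.9 at ZT21. It was rhythmic with a difference of 0.85 ± 0.16 and a peak at ZT19.85 (adjusted p = 0.00277), and its libraries at ZT17 and ZT21 lay above those at ZT9 and ZT13. The other 6 Ucp1 members were not called, with adjusted p from 0.163 to 0.614, so their fitted peaks, ZT18.23 to ZT20.41, do not establish a shared time. Means of the closest member were high at ZT5 (58.4 CPM) and ZT17 (65.1), and lower at ZT9 (42.4) and ZT21 (54.3). Such a course is poorly described by a single fitted peak. Ucp1 RNA had its fitted BAT peak at ZT12.73 without passing the test (0.95 ± 0.35, adjusted p = 0.143).

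Ppargc1a, which encodes the cold-induced coactivator PGC-1α, had 16 members spread from 258779 bp upstream to 514098 bp downstream of its start, beside 3 shared regions and 1 promoter region. The strongest of them, 277094 bp downstream (chr5:51276752-51276902), held 59.5 CPM. It was rhythmic with a difference of 0.38 ± 0.10 and a peak at ZT13.38 (adjusted p = 0.0318), as were the regions at 512207 bp (0.39 ± 0.09, ZT13.47, adjusted p = 0.0134) and 402722 bp (0.67 ± 0.19, ZT15.05, adjusted p = 0.0396). All 3 calls were lost under at least 1 alternative, such as scaling on the members alone. Ppargc1a RNA had no BAT rhythm call (adjusted p = 0.62).

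Dio2, the deiodinase that makes active thyroid hormone in brown fat, had 7 members, all but 1 of them downstream of its start. The member 130998 bp downstream (chr12:90607964-90608114) held 6.34, 6.67 and 9.67 CPM at ZT1, 8.17, 7.84 and 10.9 at ZT5 and 13.2, 18.3 and 15.2 at ZT9. It held 19, 17.9 and 25.7 at ZT13, 16.9, 19.5 and 18.6 at ZT17 and 9.06, 13.3 and 12.4 at ZT21. The ZT13 and ZT17 libraries exceeded all of ZT1, ZT5 and ZT21, with a difference of 1.46 ± 0.16 and a peak at ZT13.91 (adjusted p = 2.99e-05). The strongest Dio2 member, at 95002 bp with 50.4 CPM, was not called (adjusted p = 0.345).

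Both members of Adrb3, the β3-adrenergic receptor of adipocytes, were rhythmic with peaks late in the night. The one 5316 bp upstream (chr8:27234829-27234979) held 28.4, 30.1 and 28.2 CPM at ZT1, 15.8, 13 and 19.7 at ZT5 and 13.7, 18.4 and 12.7 at ZT9. It held 14.6, 15.9 and 13.6 at ZT13, 13.1, 19.2 and 18.1 at ZT17 and 19.4, 22 and 21.4 at ZT21. The ZT1 libraries stood above all others, and the difference was 0.87 ± 0.16 with a peak at ZT23.65 (adjusted p = 0.00291). The one 2416 bp upstream had 0.39 ± 0.06 and ZT21.99 (adjusted p = 0.0012). Adrb3 RNA in BAT peaked at ZT0.12 with a difference of 1.62 ± 0.26 (adjusted p = 0.00312), and its level did not differ by depot beyond the spread (0.03 ± 0.17 log2, adjusted p = 0.878).

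Members near the other brown fat genes had no rhythm calls. Cidea, a lipid droplet protein of brown adipocytes, had members at 72.3 and 40.0 CPM, Ppara, the fatty acid sensing receptor, had 5 up to 65.5 CPM, and Zic1, Ebf2 and Elovl3 had 2, 2 and 1 between 8.59 and 25.4 CPM. Of these 12 members edgeR called 0, 2 had an unadjusted p under 0.05 and DESeq2 called 1. Prdm16 and Fgf21 had no member.

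The nearest gene was matched to the RNA tables for 18000 members, which gave 7445 genes, 4009 of them with enough reads in both depots to be tested. Against WAT, 918 (22.9%) were higher in BAT and 1019 (25.4%) lower, at adjusted p under 0.05 and at least 2-fold, while 23.1% and 24.2% of all genes tested were. Their median log2 difference was -0.05, and that of all genes 0.04. In the whole set of 4009 genes the share of BAT-high genes was thus not above the background. The set was mixed. Genes with a member and no shared region were higher in 25.8% and lower in 22.5%, and genes with both in 20.6% and 27.8%. Genes with a shared region and no member were higher in 19.6% and lower in 28.8%, and genes with neither in 23.9% and 22.5%. These differences were not tested. Without TMM 1307 of the 4009 genes (32.6%) were higher and 760 (19%) lower. Of all genes 33.1% and 18% were, and the median of all genes moved by 0.40.

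The share of BAT-high genes was larger where the members were strong or near. Among genes whose strongest member was in the lowest of 5 equal bins of member levels 18.7% were higher in BAT and 29.1% lower, and among those in the highest bin 28.4% and 22.2%. Of the 261 tested genes nearest to the 500 strongest members, 100 (38.3%) were higher and 37 (14.2%) lower, with a median of 0.62 log2. For the 500 strongest shared regions these shares were 24.4% and 22.7%. Genes with a member within 10 kb were higher in 27.3% of cases and genes whose closest member lay 50 to 100 kb away in 14.7%. Genes with 1 member were higher in 22.1% and genes with 10 or more in 29.9%. These sets share genes and were not tested against each other.

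**Figure D4:**
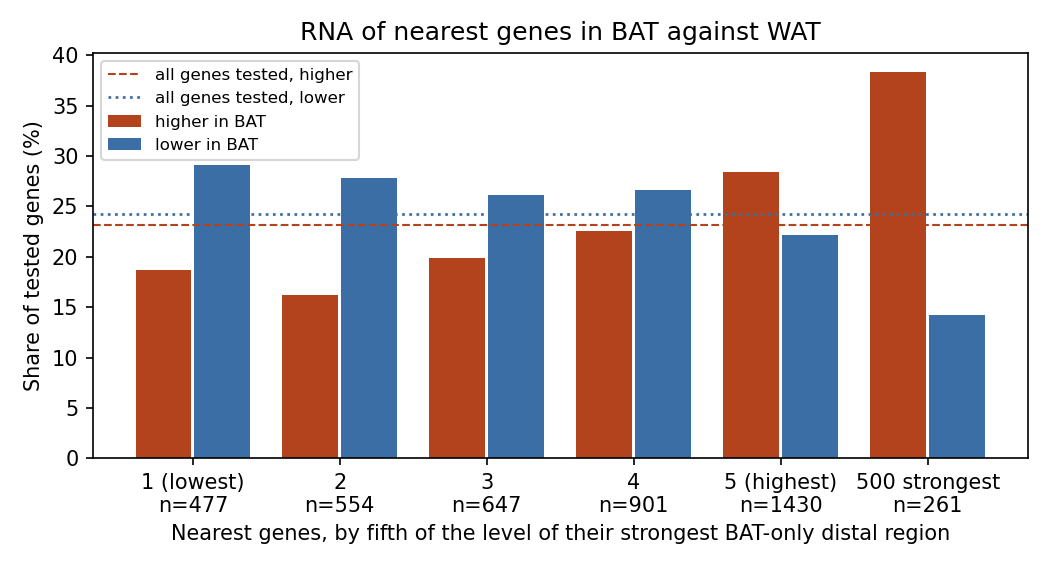
Share of tested nearest genes (%, vertical axis) called higher or lower in BAT than in WAT RNA, by bin (1 to 5) of the level of their strongest member and for the 500 strongest members, with the number of tested genes under each pair of bars. Dashed and dotted lines are the shares over all genes tested, 23.1% and 24.2%, and the bar for higher genes reaches 38.3% at the 500 strongest.

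The RNA libraries differ in makeup between the depots, which bears on every depot difference given here. BAT RNA libraries held 4980147 to 46274438 expected counts and WAT libraries 1301522 to 6481154, ribosomal RNA loci took 0.813 to 4.641% in BAT and 5.257 to 66.012% in WAT. Without the WAT libraries over 50% ribosomal RNA, 920 nearest genes were higher and 1000 lower in BAT, and without mitochondrial and ribosomal RNA genes 921 and 1020, against 918 and 1019. Markers of 4 other cell types summed to less in each BAT library than in any WAT library: 5 lymphocyte markers to 0 to 0.481 CPM against 18.6 to 194, 5 fibroblast markers to 6.35 to 53.3 against 116 to 793, 5 macrophage markers to 8.67 to 15.3 against 28.9 to 215 and 4 neural markers to 0.568 to 5.48 against 10.2 to 261. The sums of 5 endothelial markers (2.43 to 33.6 and 4.81 to 84.7) and of 10 skeletal muscle markers (23.9 to 675 and 5.94 to 431) overlapped between depots. The 6 adipocyte markers summed to 28600 to 66800 CPM in BAT and 9150 to 79300 in WAT, and the 5 brown adipocyte markers to 6450 to 15400 and 82.1 to 1090, so the markers of the labelled cell types were present. The pull-down of tagged ribosomes is meant to remove RNA of these other cells, and the part of their markers in the depot differences was not tested. In RNA pooled over a depot's cells, fewer cells of a type and less RNA per cell cannot be told apart.

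Nearest genes of the brown fat list stood on the BAT side. Of 30 genes on it 22 had a member, 103 members in all and 10 of them rhythmic, a smaller share than the 18.9% of all BAT regions. BAT-high were 17 of the 19 tested, against 23.1% of all genes, and their median difference was 2.87 log2. By edgeR 0 were lower, 0 had an unadjusted p under 0.05 in that direction and DESeq2 called 0. The list was made of brown fat genes, so a BAT excess was built into it. List genes without a member were not compared, so the share does not show what having a member adds. Ucp1 RNA ran from 695 to 2730 CPM in BAT with a median of 1390, and from 4.43 to 159 in WAT with a median of 56.6, a log2 difference of 4.67 ± 0.31 (adjusted p = 3.68e-16). Cidea RNA spanned 2300 to 5550 CPM in BAT and 30.6 to 435 CPM in WAT (4.25 ± 0.25, adjusted p = 1.15e-17), and Ppara RNA from 16.2 to 40.5 and from 0 to 10.2 (3.32 ± 0.25, adjusted p = 1.62e-14). The depots did not overlap for these 3 genes, whereas Dio2 RNA overlapped, from 7.22 to 45 in BAT and up to 8.01 CPM in WAT, where the lowest was 0 (3.6 ± 0.31, adjusted p = 4.42e-13). The pair not called was Adrb3 and Ebf2, which encodes an early factor of the brown lineage.

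Members near fatty acid oxidation genes were 36, 5 of them rhythmic (18.9% over all BAT regions), near 15 genes of the list, all tested. BAT-high were 13 of them, against 23.1% of all genes, and the median difference over the 15 was 2.22 log2. This list and the respiratory chain list were chosen by function, and their genes without a member were not compared. Acadm, the medium-chain acyl-CoA dehydrogenase, ran from 1970 to 2640 CPM against 120 to 398 (3.09 ± 0.15, adjusted p = 1.08e-19), and Cpt1b, the muscle and brown fat form of the mitochondrial fatty acid gate, from 118 to 378 against 2.28 to 34.4 (4.34 ± 0.25, adjusted p = 1.1e-17). The liver form Cpt1a, with 3 members, was lower in BAT, 0.876 to 3.84 CPM against 0.616 to 17.1 (-1.67 ± 0.25, adjusted p = 2.56e-07). Of 18 respiratory chain genes, 3 had a member, Ndufs1, Sdhb and Cycs. All 3 were higher (23.1% over all genes), by 2.34 ± 0.22, 3.21 ± 0.14 and 3.14 ± 0.17. On the list of white fat and posterior identity 5 genes had 11 members, 4 of them rhythmic (18.9% over all BAT regions). By edgeR 0 of the 5 genes were higher in BAT, 0 had an unadjusted p under 0.05 in that direction and DESeq2 called 0. By edgeR 2 were lower, against 24.2% of all genes, and DESeq2 called 4 lower.

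Beyond the lists, the nearest genes with the largest BAT excess included Cib4, Fbp2, Olig1, Rab17 and Cyp2b10. Fbp2, the muscle form of fructose-1,6-bisphosphatase, ran from 6.78 to 11 CPM in BAT with a WAT median of 0 and a WAT maximum of 1.47. Olig1 encodes a transcription factor known from oligodendrocytes, had 4 members, and ran from 1.64 to 6 CPM in BAT with a WAT median of 0 and a WAT maximum of 1.66. Rab17 levels spanned 11.8 to 47.5 CPM in BAT and 0 to 4.61 CPM in WAT (4.65 ± 0.36, adjusted p = 2.34e-14). At the other end stood genes of lymphocytes and other immune cells, each with 1 to 3 members: Bank1, a B-cell adaptor, spanned 0 to 0.289 CPM in BAT and 14.9 to 189 CPM in WAT, and Bcl11b, a T-cell factor that other tissues use too, 0 to 0.884 and 15.7 to 67.3 CPM. Il7r was listed at 0 in all BAT libraries. These genes were lower in BAT than in WAT, as was the lymphocyte marker sum given above, and Bank1 is itself in that sum. Whether they varied together across libraries was not tested.

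RNA rhythms were tested in each depot in the same way as accessibility. Of 4346 tested nearest genes 541 (12.4%) were rhythmic in BAT RNA, against 9.17% of all genes. Genes with a rhythmic member reached 15.6% (253 of 1621), those whose members were not rhythmic 10.6% (288 of 2725), and the share was 13.6% with 1 rhythmic member, 17.3% with 2 and 27.6% (42 of 152) with 3 or more. Rhythmic shared regions stood near genes of which 17.7% were rhythmic and rhythmic promoters near genes of which 14.2% were, so this was not limited to the members. In WAT RNA 447 of 4487 nearest genes (9.96%) were rhythmic, against 9.9% of all genes. A difference in rhythm between depots was called for 515 of 4009 (12.8%), against 12.9% of all genes.

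The BAT RNA count rests on single libraries. Without replicate 2 at ZT21 it was 1311 (30.2%, against 27.4% of all genes). It was lower by over 1.5 times without each of 7 other libraries: replicate 3 at ZT13 (268), replicate 2 at ZT17 (358), replicates 2 (249) and 3 (265) at ZT1, replicate 1 at ZT21 (316) and replicates 2 (328) and 3 (359) at ZT9. The share among nearest genes of members was above that of all genes in all 24 settings computed for BAT RNA. The count of 253 genes with a rhythmic member and rhythmic RNA was 550 without replicate 2 at ZT21, 131 without replicate 3 at ZT13, 125 and 134 without replicates 2 and 3 at ZT1, 154 without replicate 1 at ZT21 and 160 without replicate 2 at ZT9. The WAT count was 875 without replicate 3 at ZT9. It was 183 to 293 without each of 8 others: replicates 1 (195) and 3 (184) at ZT17, 2 (293) at ZT1, 1 (183) and 3 (191) at ZT21, 1 (256) and 2 (211) at ZT5 and 2 (184) at ZT9. The count of depot differences was 775 and 1080 without BAT replicate 2 at ZT21 and WAT replicate 3 at ZT9. It was 218 to 338 without BAT replicates 1 (296) and 3 (259) at ZT21 or 2 (272) and 3 (218) at ZT9, or WAT replicates 1 (314) and 3 (257) at ZT21 or 2 (338) at ZT9.

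In the 253 genes where a member and the BAT RNA were both rhythmic, the RNA peak lay within 4 h of the peak of the member with the smallest p in 151 (59.7%), and over 8 h away in 42 (16.6%), with a median gap of 3.34 h. An even spread over the day would put 33.3% within 4 h, though peaks of both kinds are not evenly spread. The share was 63.8% for shared regions and 52.7% for promoters. The count of 151 was 85 without replicate 3 at ZT13, 79 and 85 without replicates 2 and 3 at ZT1, and 271 without replicate 2 at ZT21. Against WAT RNA, 44.6% of 168 genes were within 4 h. The share for the members ran from 37.9%, with RNA scaled by library size alone, to 67.6% over the alternatives. Where the member peaked between ZT11 and ZT19, 37% of rhythmic genes had RNA peaks nearest to ZT13, and where it peaked between ZT3 and ZT11, 35.6% had. Over all rhythmic genes 29% had RNA peaks nearest to ZT13 and 31.5% nearest to ZT1. Where the member peaked between ZT19 and ZT3, 48.8% had RNA peaks nearest to ZT1.

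**Figure D5:**
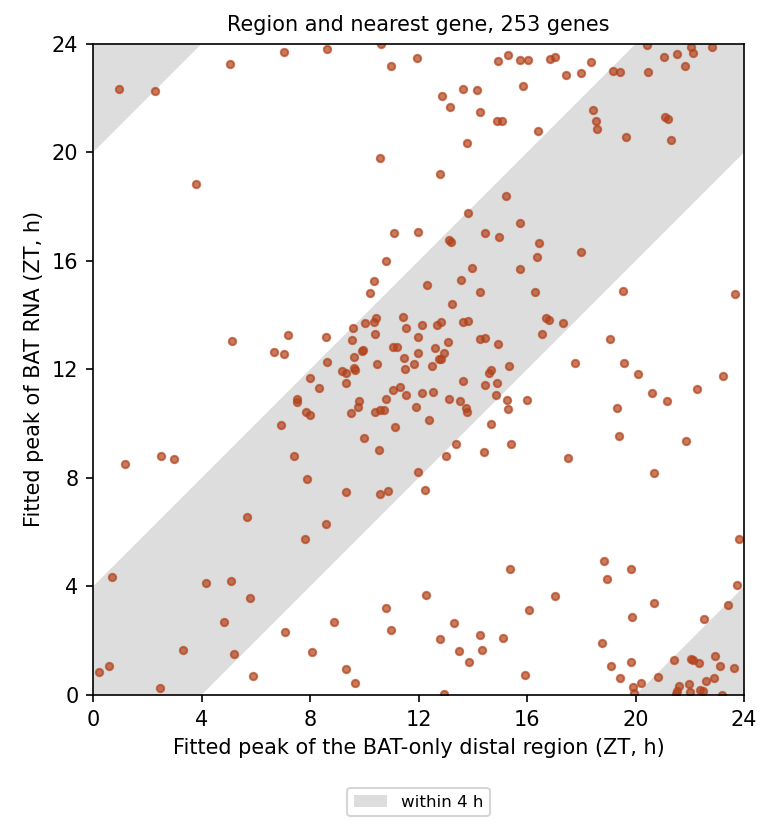
Fitted peak of BAT RNA (ZT, h, vertical axis) against the fitted peak of the rhythmic member with the smallest p (ZT, h, horizontal axis) for 253 genes, 1 point each; the grey band marks gaps within 4 h. Points are dense from ZT10 to ZT16 on both axes and near midnight to ZT2 for RNA of members that peak after ZT20, and 151 of 253 points lie in the band.

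Some pairs among the 12 with the smallest region p, a cut chosen after their values were seen, show both cases. The Actn2 member, 23.3 kb into the locus of α-actinin 2, peaked at ZT12.75 (1.78 ± 0.17, adjusted p = 8.01e-06). Its RNA ran from 2.19 to 18.7 CPM in BAT with a peak at ZT12.37 (1.38 ± 0.31, adjusted p = 0.0287), a call lost without 5 of the 17 libraries in turn, and as for Myom2 the muscle markers vary between the same libraries. The Sh3pxd2a member (chr19:47421337-47421487) peaked at ZT22.94 (1.43 ± 0.16, adjusted p = 4.18e-05) and its RNA at ZT1.44 (1.38 ± 0.14, adjusted p = 4.15e-05). It encodes an adaptor of podosomes. The member of Dapk1, a death-associated kinase gene with 9 members of which 6 were rhythmic, peaked at ZT22.05 and its RNA at ZT1.31 (2.04 ± 0.17, adjusted p = 1.37e-05). The member of Tsc22d3, the glucocorticoid-induced leucine zipper gene on the X chromosome, peaked at ZT11.98 (2.08 ± 0.27, adjusted p = 0.000169), and its RNA at ZT17.07, a call lost in 17 of 22 alternatives. The Klf6 member, 180.7 kb downstream of the start, peaked at ZT10.8 and its RNA at ZT10.89.

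The 10 nearest genes with the smallest BAT RNA rhythm p were Dapk1, Ankrd50, Sh3pxd2a, Usp2, Fbxo40, Arntl, Fdft1, Dtx4, Mmd2 and Ppp2r1b. Their RNA fell into a group with peaks around lights on and a group with peaks just after lights off. Around lights on, Mmd2 ran from 0.353 to 74.9 CPM in BAT with a median of 3.32, a difference of 5.21 ± 0.6 and a peak at ZT23.87 (adjusted p = 0.000222), and 1 of its 2 members was rhythmic. Dtx4, a ubiquitin ligase gene of the Deltex family with both of its members rhythmic, ran from 0.48 to 15.1 CPM and peaked at ZT1.01 (3.56 ± 0.41, adjusted p = 0.000214). Ankrd50 peaked at ZT0.13 (1.98 ± 0.19, adjusted p = 4.15e-05), with 1 of 5 members rhythmic, and Ppp2r1b, a scaffold subunit of protein phosphatase 2A, peaked at ZT23.44 (1.65 ± 0.2, adjusted p = 0.000311), with 5 members and no rhythm call among them. After lights off, Usp2, a clock-controlled deubiquitinase gene with 2 of 3 members rhythmic, ran from 36.8 to 205 CPM and peaked at ZT13.73 (2.08 ± 0.21, adjusted p = 4.31e-05). Fdft1, which encodes squalene synthase, ran from 202 to 939 CPM and peaked at ZT12.58 (1.65 ± 0.19, adjusted p = 0.000214), with 1 of 2 members rhythmic.

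Of the clock list 8 genes had 23 members. Rhythmic were 8 of the 23, against 18.9% of all BAT regions, and 6 of the 7 genes tested had rhythmic BAT RNA, against 9.17% of all genes. In WAT edgeR called 0 of 8, 3 had an unadjusted p under 0.05 and DESeq2 called 2. This list was made of clock genes, so rhythmic RNA was built into it. Clock genes without a member were not compared, so the BAT share does not show what having a member adds. The Arntl member 43.8 kb downstream of its start (chr7:113251196-113251346) held 11.2, 9.72 and 11.9 CPM at ZT1, 10.7, 11.5 and 9.48 at ZT5 and 6.94, 7.51 and 6.85 at ZT9. It held 8.69, 8.69 and 9.34 at ZT13, 11.9, 11.9 and 11 at ZT17 and 14.4, 13.1 and 16.2 at ZT21. ZT9 was lowest and ZT21 highest with no overlap with other times, the difference was 0.84 ± 0.13 and the peak ZT21.47 (adjusted p = 0.00097). Arntl RNA, which encodes BMAL1, peaked at ZT0.05 with a difference of 4.92 ± 0.54 (adjusted p = 0.000131).

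The other clock members were timed in different ways. The Per1 member 1.8 kb upstream peaked at ZT9.80 with a small difference of 0.27, near the RNA peak at ZT10.85 (2.17 ± 0.35, adjusted p = 0.00416). The Cry2 member 12.3 kb upstream peaked at ZT19.38, a call lost in 12 of 25 alternatives, and Cry2 RNA at ZT9.55 (0.63 ± 0.13, adjusted p = 0.0174). Nfil3, a repressor at D-boxes, had a pair of rhythmic members with peaks at ZT22.88 and, at the one 87.1 kb upstream that overlapped a BMAL1 region by 96 bp, at ZT10.59, and its RNA peaked at ZT19.8. The Hlf member 21.1 kb downstream, which overlapped a BMAL1 region by 150 bp, peaked at ZT6.66, a call lost in 11 of 25 alternatives. Hlf RNA peaked at ZT12.65 (0.7 ± 0.18, adjusted p = 0.0429), a call lost in 15 of 22 alternatives, 13 of which left out 1 library. Among all members, overlap with a BMAL1 region of WAT by at least 75 bp was rare, 470 (2.58%) against 16% of shared regions and 30.6% of promoters. This factor was mapped in the depot in which the members were not called, and 23% of the 470 (108) were rhythmic, close to the 21.6% of members without such an overlap. Fewer of them peaked between ZT11 and ZT19: 34.3% of the 108, against 57.3% of rhythmic members without such an overlap. The direction was the same for rhythmic shared regions (17.7% against 22%) and rhythmic promoters (2.57% against 11.6%), and these differences were not tested.

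Several genes held clusters of rhythmic members. In 246 genes with at least 3 rhythmic members, all of them peaked within 4 h of their mean time in 177 (72%), and neighbouring regions of a gene are not independent. No such share was computed for members of different genes, and 56.6% of all rhythmic members peaked between ZT11 and ZT19. The 72% therefore does not show how far members of a gene agree beyond that. Slc22a12, a urate transporter gene, had 8 members of which 7 were rhythmic, all within 2.21 h of ZT12.94. Klhl29 had 7 of 11 within 3.33 h of ZT8.39, and Tns1, which encodes the focal adhesion protein tensin 1, had 9 of 15 with peaks from ZT6.41 to ZT14.04. Pik3r1, the regulatory subunit of PI3 kinase, had 20 members with 7 rhythmic and peaks from ZT8.74 to ZT20.63, among them the Pik3r1 region printed above. The most members stood near H2afy3 (32), Arid1b (26) and Nav2 (24), with 5, 3 and 2 rhythmic, against 18.9% of all BAT regions. H2afy3 was listed at 0 in all BAT RNA libraries, and Arid1b RNA, a chromatin remodelling subunit, was -0.86 ± 0.11 log2 in BAT (adjusted p = 4.03e-09). Among the genes with the most members, Nfia, a factor of the brown fat program with 20 members and 6 of them rhythmic, had RNA of 96.1 to 164 CPM in BAT and 33.5 to 157 in WAT (0.72 ± 0.14, adjusted p = 1.36e-05), and Thrb, a thyroid hormone receptor with 19 members, had 20.9 to 58.5 against 2.92 to 18.7 (1.58 ± 0.17, adjusted p = 1.79e-10).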

How the data were processed

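The authors deposited 1 table of ATAC-seq regions per depot with raw tag counts per library, HOMER annotation, a HOMER peak score and JTK_CYCLE p- and q-values with a phase in hours, 1 table of expected counts per gene for the RNA of both depots, RNA tables with TPM and JTK_CYCLE results, and BMAL1 regions with a peak score, per the file headers. STAR 2.7.5, RSEM 1.3.0, Bowtie2 2.4.1, HOMER, DESeq2, limma and the mm10 build are named in the submitters' processing notes, without their roles. Expected counts were rounded. Among the deposited RNA columns, 1 belongs to no listed sample and was not used.

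Members were found by coordinates. Regions and genes were fitted as whole tables with edgeR 4.0.16 (TMM, filterByExpr by group, glmQLFTest, Benjamini-Hochberg adjustment, call at adjusted p under 0.05, depot calls also at least 2-fold), in R 4.3.3. Rhythm was a cosine plus a sine of 24 h. The depot test had time as a factor, and the interaction test crossed depot with both terms. Peak times were binned to the sampled time within 2 h. Fits were tested on simulated data. Levels are TMM-scaled CPM. Within a time, library values correlated at 0.957 (ATAC, median r of log levels across regions), 0.97 (BAT RNA) and 0.863 (WAT RNA), and no pair of libraries was identical.

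Named were the 10 members with the highest level and the 10 with the smallest rhythm p, members near 11 brown fat genes, the 15 genes with the most members, the 10 nearest genes at either end of the depot difference, the 10 with the smallest BAT RNA rhythm p and called genes of 5 lists. The members and lists were chosen with earlier results of these data known. Alternatives (normalization, filter, time as a factor, DESeq2 1.42.0, loess scaling, left-out libraries, a replicate block, other member rules) are in the closing section. Motifs were searched in the 71 members with reference sequence only, where the design had all regions, because no mm10 genome was used here.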

Additional observations from a re-analysis of the deposited data

Results flagged for a closer look

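Among the named nearest genes of members, 13 had a daily RNA curve that differed between BAT and WAT by edgeR's interaction test at adjusted p under 0.05, and each is given as the peak-to-trough difference between the fitted log2 curves of the depots. Over all genes tested 12.9% were called, and no such share is given for the named genes, which were chosen. Arntl, Fbxo40, Fdft1, Sh3pxd2a and Ppp2r1b were named for the smallest BAT RNA rhythm p in the same libraries. Their calls are therefore not independent of that choice. Arntl, which encodes the clock factor BMAL1, differed by 4.24 ± 1.05 (adjusted p = 0.023), with a called rhythm in BAT and not in WAT (adjusted p = 0.439). Fbxo40, a ubiquitin ligase gene of muscle, differed by 5.37 ± 1.24 (adjusted p = 0.016) with fitted peaks at ZT13.21 in BAT and ZT7.73 in WAT. Fdft1, squalene synthase, differed by 2.72 ± 0.43 (adjusted p = 0.00381) and was rhythmic in both depots, with peaks at ZT12.58 in BAT and ZT19.35 in WAT. Kcnk3, a potassium channel gene of the brown fat list, differed by 2.42 ± 0.47 (adjusted p = 0.00823), with peaks at ZT10.59 and ZT18.72.

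Ndufs1 differed by 2.32 ± 0.43 (adjusted p = 0.00662), Etfb by 1.73 ± 0.5 (adjusted p = 0.0483) and Cpt2 by 1.48 ± 0.42 (adjusted p = 0.042). Fitted WAT peaks of these mitochondrial genes lay from ZT18.9 to ZT19.83, though the WAT rhythm of Etfb was not called (adjusted p = 0.0641). Of all genes rhythmic in WAT RNA, 21.6% peaked nearest to ZT17 and 47.3% nearest to ZT21, so this timing was not particular to them. The Etfb difference lost its call in 27 of 41 alternatives and the Cpt2 difference in 17, all of them on leaving out 1 library. Ppara differed by 2.18 ± 0.58 (adjusted p = 0.031) and Nfia by 1.25 ± 0.32 (adjusted p = 0.0254), without a BAT rhythm call. Sh3pxd2a differed by 0.95 ± 0.26 (adjusted p = 0.039), Ppp2r1b by 1.4 ± 0.28 (adjusted p = 0.00984) and Adrb3 by 1.46 ± 0.42 (adjusted p = 0.0471), each with a called BAT rhythm that peaked between ZT23.44 and ZT1.44. Of the 41 alternatives, the Adrb3 difference lost its call in 22, that of Sh3pxd2a in 9, that of Ppara in 7, those of Nfia and Ppp2r1b in 2 each and that of Olig1 in 1. Olig1 had a fitted difference of 12.18 ± 2.25 (adjusted p = 0.00883), but its WAT median was 0 CPM, so that size rests on a few reads.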

How the results depend on the processing

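Of the values for single regions and genes, 12858 stayed on the same side of the threshold across alternatives, 368 lost the threshold and 180 gained it. Among values called in the main fit or the alternative, 0 reversed. Direction was not compared where neither fit made a call, and such values count among the 12858. The cause of the changes below was not tested. Rhythmic members that peak from ZT11 to ZT19 numbered 1368 with TMM over members and 3527 with TMM over promoters, scalings chosen after seeing the data, and rhythmic members 7479 with time as a factor. BAT RNA rhythms of nearest genes numbered 1045 with DESeq2, 927 with library size alone and 326 with time as a factor, those near rhythmic members 447 and 388 with the first pair, and those within 4 h 240 with DESeq2. WAT rhythms numbered 776 with DESeq2, 278 with library size alone, 844 without a filter and 952 without WAT libraries over 50% ribosomal RNA, and depot differences of rhythm 987, 245 and, without those libraries, 1297. Nearest genes lower in BAT numbered 1914 without a filter, and adjusted p alone gave 1506 higher and 1556 lower. Other member rules moved percentages: members at or above the median level of all regions were rhythmic in 23.9% and members over 10 kb away in 22.2%. Their genes were higher in BAT in 28.3% and 21.1%, and 27.3% for genes within 10 kb. Lower genes were 22.6% with the level rule and 23.1% within 10 kb, BAT rhythms 16.2% and 14.2%, or 15.6% near at least 3 members, and depot differences of rhythm 14.2% and 14.3%.

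Leaving out each library in turn gave 3073 to 4094 rhythmic members, 1701 to 2338 peaking from ZT11 to ZT19, 892 to 922 genes higher and 976 to 1026 lower in BAT, 96 to 103 higher near the 500 strongest members, 16 to 18 of the brown fat list and 5 to 6 rhythmic clock genes. BAT rhythms ran from 249 to 1311, those near rhythmic members from 125 to 550, those within 4 h from 79 to 271, WAT rhythms from 183 to 875 and depot differences from 218 to 1080.

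Replicate numbers showed no pairing across times within a depot and assay. Deviations of same-numbered libraries of different times correlated with a median r of 0.00355 in BAT ATAC (-0.368 to 0.518), 0.0557 in BAT RNA and 0.0249 in WAT RNA. Whether same-numbered BAT and WAT libraries of a time are paired was not checked. With a replicate block, 3623 members were rhythmic and 2053 peaked from ZT11 to ZT19. With the replicate block 932 nearest genes were higher and 1014 lower in BAT, 417 rhythmic in BAT (192 near rhythmic members, 121 within 4 h), 472 in WAT and 491 different between depots. In WAT RNA up to 66.012% of a library's counts lay at ribosomal RNA loci, and the part of depth in the WAT counts was not tested. The motif count over all members was not run.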
